A study of Mus musculus with 67 samples.

Results

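The genes described are the amino acid transporter genes of 7 solute carrier (SLC) families in mouse liver. They were taken by symbol, as every protein-coding gene of the GENCODE M21 annotation whose symbol starts with Slc1a, Slc3a, Slc6a, Slc7a, Slc36a, Slc38a or Slc43a followed by a digit. This gave 64 of the 55450 annotated genes, namely 21 Slc6a, 16 Slc7a, 11 Slc38a, 7 Slc1a, 4 Slc36a, 3 Slc43a and 2 Slc3a genes. One of them, Slc7a6os, meets the rule by its symbol and is not a transporter gene, so 63 are named as transporters. The 38 genes that passed an expression filter were tested, and the other 26 were counted but too low to test.

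SLC transporters carry amino acids across the plasma membrane and the membranes of organelles. Some couple uptake to sodium, others exchange one amino acid for another, and several Slc7a carriers reach the cell surface only when bound to a heavy chain encoded by Slc3a1 or Slc3a2. When amino acids are scarce, the kinase GCN2 raises translation of the transcription factor ATF4. ATF4 is known to induce several of these genes in cultured cells, among them Slc7a5, Slc3a2, Slc7a11, Slc38a2, Slc1a4 and Slc1a5. Leucine itself is sensed by Sestrin2, which holds back the growth-promoting mTORC1 kinase while leucine is low.

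RNA was sequenced from 67 livers, each of a separately numbered mouse, to ask how WT and Sestrin knockout livers respond to a diet without leucine. The mice were WT or belonged to a double knockout that the labels write as Sestrin DKO in one place and Sesn2 DKO in another, here called DKO. They ate control or leucine-free food for 24 hours, labelled day 1, or for 8 days. The control food groups numbered 7 (WT) and 8 (DKO) at day 1 and 5 each at day 8, and the leucine-free groups 12 (WT) and 18 (DKO) at day 1 and 6 each at day 8. Sex, age and strain are not stated in the labels used here. Xist had 0 counts in DKO leucine-free replicate 1 of day 1 and at least 9456 counts in every other library.

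Levels are given as CPM, the counts of a gene relative to the library total after TMM scaling in edgeR, from libraries with 22814668 to 56916009 counts. Between genes, levels are compared only per kilobase of merged exon. Sesn1 separated the genotypes, at 9.24 to 22.2 CPM in WT against 3.49 to 7.68 CPM in DKO, whereas Sesn2 was at 9.60 to 19.6 CPM in WT against 10.6 to 36.9 CPM in DKO, so its counts do not check the label. On leucine-free food Sesn2 was higher in the DKO group, by 0.72 at day 1 and at day 8 on the log2 scale (edgeR's quasi-likelihood test, adjusted p = 0.000221 and 0.025), and Sesn3 did not differ by the test. Hepatocyte markers, with Alb among them, summed to between 47436 and 133270 CPM in every liver. In such bulk samples, fewer cells of a type and less RNA per cell cannot be told apart. Counts were made per gene and the sources used here give no strand setting for them, so genes that overlap on the opposite strand, such as Slc7a7 with Oxa1l or Slc7a4 with P2rx6, are uncertain. Slc7a5 overlaps Gm20388 in this way, which was at 0 CPM in all 8 groups, and Slc43a2 overlaps Gm45606.

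Promoters were searched for the core of the amino acid response element, the letters TGATGNAA that ATF4 with a C/EBP partner is known to bind, on both strands of RefSeq promoters of GRCm38.p6 that run from 250 bases before to 50 bases after the gene's start. The motif was in 1304 of 32851 promoters of all genes (3.97%) and in 5 of 67 promoters of the 46 genes of the 64 that were matched (7.46%). The promoters of the other 18, Slc7a5 and Slc38a3 among them, were not analysed here. Slc7a11, Slc6a21, Slc1a4 and Slc7a7 held it, and Slc3a2, Slc38a2 and Slc6a16 did not hold these letters in their windows. The stretches are shown because Slc6a21 and Slc1a4 responded to the diet in opposite directions, while Slc7a11 and Slc7a7, with 2 copies each, were too low to test (Slc7a11) or not called (Slc7a7). Each reads 5′ to 3′ on the gene's strand with the motif in capitals, and a match is a description of the letters, not of binding.
Slc7a11, the 250 bases before the start, chr3:50443614-50443863, minus strand: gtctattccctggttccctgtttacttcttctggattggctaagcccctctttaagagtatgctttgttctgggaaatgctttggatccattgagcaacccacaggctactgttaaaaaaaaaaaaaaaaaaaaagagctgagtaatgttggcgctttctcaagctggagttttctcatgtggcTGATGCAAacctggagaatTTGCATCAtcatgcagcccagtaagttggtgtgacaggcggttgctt
Slc6a21, chr7:45282834-45282863, plus strand: agaggtgagaaTTACATCAagtgggcctcc
Slc1a4, chr11:20332699-20332728, minus strand: tgcctcctgcgTTGCATCAtctccagcctg
Slc7a7, chr14:54417927-54417956, minus strand: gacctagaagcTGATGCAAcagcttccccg
Counted from the RefSeq start, the motif begins at base -66 and base -47 in Slc7a11, at -28 in Slc6a21, at -4 in Slc1a4 and at -141 and -1 in Slc7a7, of which the second is printed. That printed copy also lies at -243 of another, overlapping Slc7a7 promoter, so it counts in 2 of the 5 promoters above. The Slc6a21 and Slc3a2 starts used by RefSeq lie inside the spans that GENCODE gives these genes, and those of Slc7a7 and Slc6a16 lie before the start of their GENCODE spans. The windows of Slc3a2, Slc6a16 and Slc6a21 therefore leave the GENCODE starts of these genes unsearched. For no gene was sequence beyond its windows searched, introns included, so a window without the letters does not show that a gene lacks the element. Of 5 promoters checked, 3 had a start within the first 300 bases of a GENCODE transcript.

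A small number of hepatocyte carriers held most of the transporter RNA. All 64 genes together took 0.301% to 0.5425% of a liver's counts, and the 5 most counted genes took 79.09% of these. Per kilobase, the order over the 67 livers began with Slc38a3, the glutamine carrier SNAT3, at a mean of 262 CPM, and Slc38a4, the small neutral amino acid carrier SNAT4, at 216 CPM. They were followed by Slc6a13, a GABA and taurine carrier, at 94.8 CPM, by Slc7a2, a carrier of arginine and lysine, at 56.7 CPM, and by Slc3a1, the heavy chain rBAT, at 46.9 CPM per kilobase. The heavy chain gene Slc3a2 stood at 14.0 CPM and Slc38a2, the SNAT2 carrier, at 11.9 CPM per kilobase. The light chain gene Slc7a5 (LAT1), which carries leucine, stood at 1.27 CPM per kilobase, and Slc43a2 (LAT4), another leucine carrier, at 1.96. The 8 group means of Slc38a3 ran from 223 to 340 CPM per kilobase and those of Slc38a4 from 198 to 246, with Slc38a3 the higher in each group. In DKO livers without leucine at day 1 the pair stood at 223 and 218 CPM per kilobase, a gap within the spread of Slc38a3 there (1176 ± 243 CPM, SD, n = 18).

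**Figure D1:**
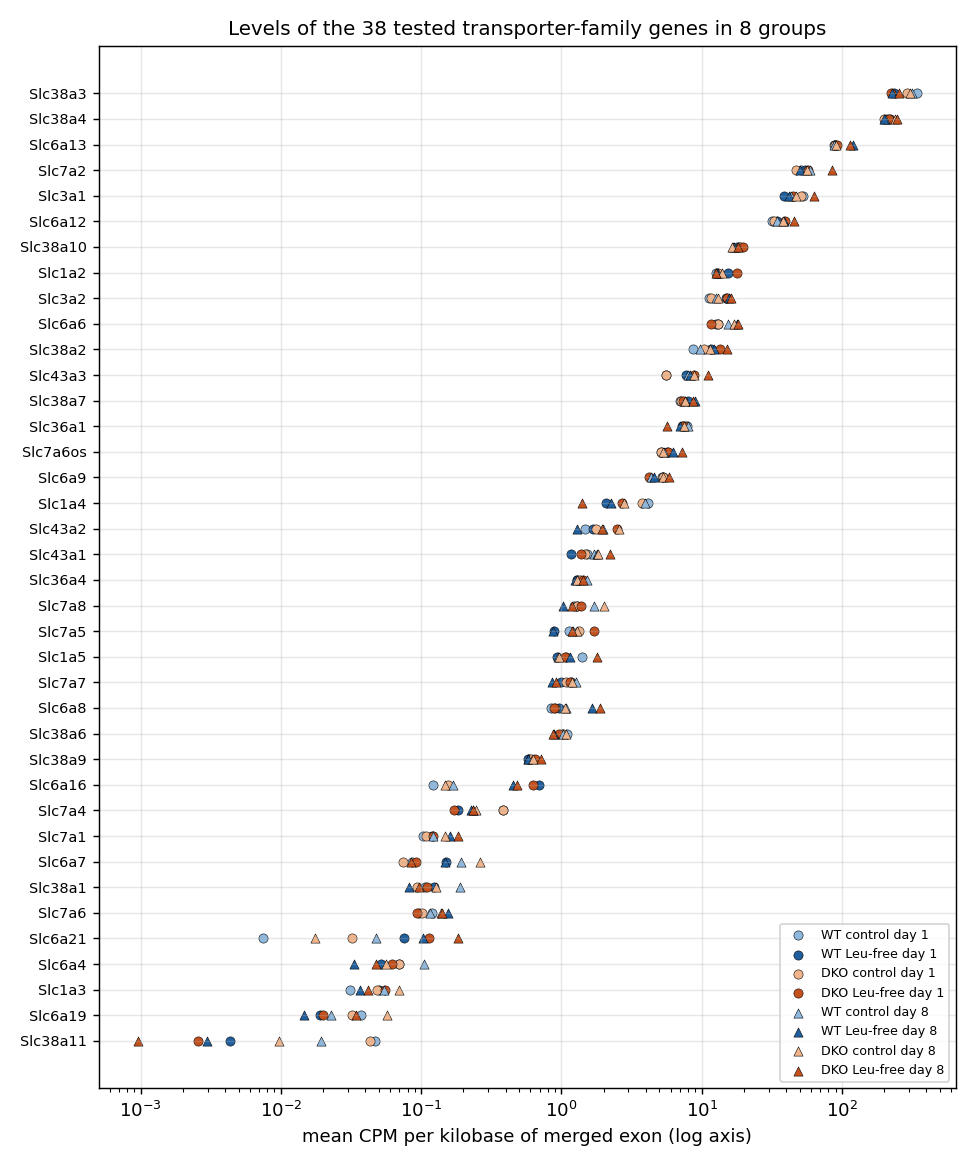
Mean CPM per kilobase of merged exon (log axis) of each of the 38 tested genes, one symbol per group, circles for day 1 and triangles for day 8. Slc38a3, at 223 to 340 CPM per kilobase, and Slc38a4, at 198 to 246, stand above the rest, and Slc38a11 has the lowest mean over the 67 livers, though not in every group.

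Of the 26 genes that were too low to test, no liver had more than 0.441 CPM of any. Among them were Slc1a1, Slc1a6, Slc1a7, Slc6a2, Slc6a3, Slc6a5, Slc6a11, Slc6a14, Slc6a15, Slc6a17, Slc6a18, Slc6a20a, Slc6a20b, Slc7a3, Slc7a9, Slc7a10, Slc7a11, Slc7a12, Slc7a13, Slc7a14, Slc7a15, Slc36a2, Slc36a3, Slc38a5 and Slc38a8. Of these genes, 3 had 0 counts in all 67 libraries (Slc6a15, Slc6a18 and Slc7a12). Slc7a11, the light chain of the cystine and glutamate exchanger xCT, had 91 counts in total, spread over 35 of the 67 libraries. Its group means lay between 0.0190 and 0.0877 CPM, both ends being DKO control groups, at day 1 and day 8 in that order. All 8 groups overlapped, and no group comparison of Slc7a11 was tested.

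The leucine-free diet moved a share of the transporter genes that was close to the share of all genes. In edgeR's quasi-likelihood test with Benjamini-Hochberg adjustment over 16908 genes, at an adjusted p under 0.05, 9 of the 38 genes (23.7%) were called in WT livers at day 1, 4 higher and 5 lower, against 19.5% of all tested genes (8.28% higher and 11.2% lower). Day 1 in DKO livers again gave 9 of 38, 6 higher and 3 lower, against 23.5% of all genes (10.5% and 13%). Day 8 gave 3 calls in WT livers, 1 higher and 2 lower, or 7.89% against 5.25% of all genes (2.38% and 2.87%). The DKO livers of day 8 had 9 calls, 6 higher and 3 lower, against 20.6% of all genes (11.1% and 9.51%). The median log2 change of the 38 genes lay between -0.02 and 0.11 in the 4 diet comparisons, beside all-gene medians of -0.0040 to 0.02. In all, 17 genes were called in at least 1 diet comparison, and with the genotype and time comparisons 18 were.

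**Figure D2:**
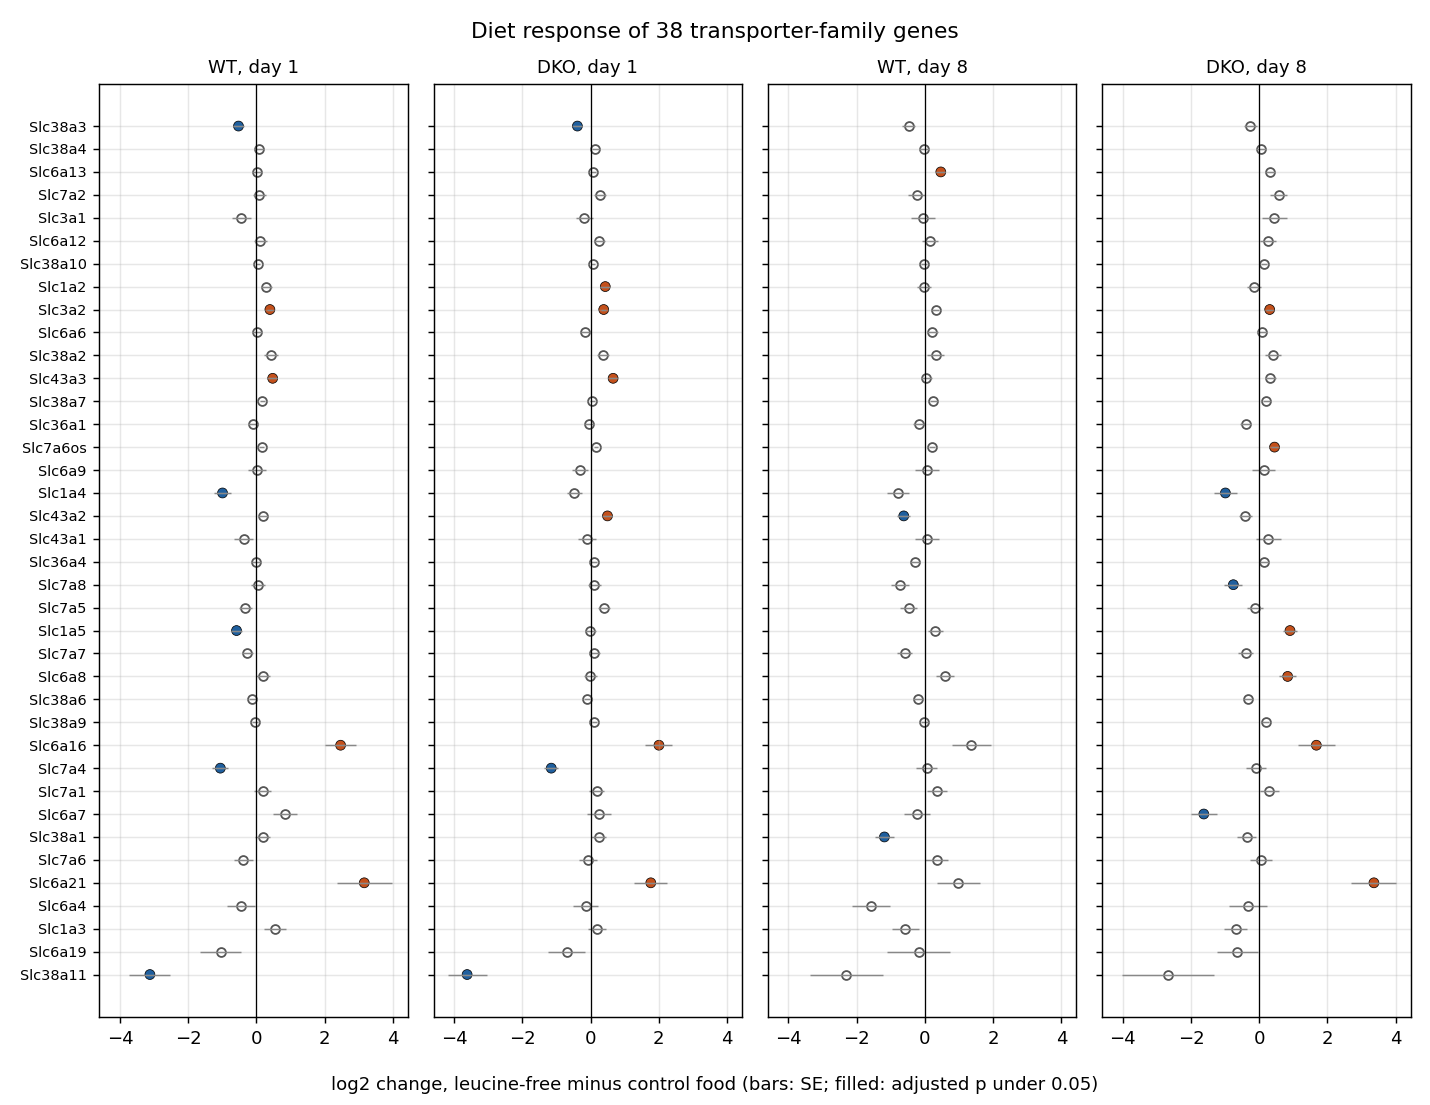
Log2 change of the 38 tested genes, leucine-free minus control food, with standard errors, in WT and DKO livers at day 1 and day 8; filled points passed the test (orange higher, blue lower) and genes are ordered by level per kilobase. Slc6a16 and Slc6a21 rise most at day 1 (2.47 and 3.16 in WT), Slc38a11 falls most (-3.12 in WT), and Slc38a3 is the most abundant gene that passed (-0.52 in WT).

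Slc7a5 and Slc43a2, both carriers of leucine and other large neutral amino acids, had higher levels in the DKO than in the WT group after 1 day without leucine, and no other of the 38 tested genes was called there. Slc7a5 was at 1.46 to 4.88 CPM with a median of 3.25 in the 12 WT livers and at 3.13 to 10.3 CPM with a median of 6.03 in the 18 DKO livers. The groups overlapped, and 11 of the 18 DKO livers lay above all WT livers. The log2 difference, DKO minus WT, was 0.93 ± 0.15 (SE), with adjusted p = 0.000106. Slc43a2 was at 10.7 to 26.3 CPM (median 16.6) in these WT livers and at 16.2 to 31.5 CPM (median 25.4) in these DKO livers, with 6 of the 18 above all WT livers. Its log2 difference was 0.56 ± 0.12 with adjusted p = 0.00294. On control food at day 1 neither gene was called between the genotypes. There Slc43a2 was at 9.61 to 19.0 CPM in WT and 11.9 to 22.9 CPM in DKO livers, and Slc7a5 at 2.85 to 6.11 and 3.14 to 6.39 CPM. These 2 genes are 5.26% of the 38 tested, beside 3.7% of all genes called in this comparison and 1.87% called higher in DKO. In the same comparison 3 of 8 tested hepatocyte markers were lower in DKO livers, with summed levels of 73628 to 113400 CPM in WT and 47436 to 100707 CPM in DKO livers, and 3 of 6 erythroid markers were lower, at 75.8 to 344 CPM against 46.6 to 168 CPM. No Kupffer cell marker was called, and the part of these cells in the values of Slc7a5 and Slc43a2 was not tested.

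For neither gene did the diet response differ between the genotypes by the test. Slc7a5 did not pass the diet test in either genotype at day 1: from control to leucine-free food its mean CPM went from 4.17 ± 1.14 (SD, n = 7) to 3.30 ± 0.929 (n = 12) in WT livers and from 4.91 ± 1.22 (n = 8) to 6.37 ± 2.22 (n = 18) in DKO livers. The log2 changes were -0.33 ± 0.19 in WT (adjusted p = 0.24) and 0.39 ± 0.17 in DKO (adjusted p = 0.0801), and without DKO leucine-free replicate 6 or 11 the latter adjusted p was 0.041 or 0.0413. The difference between these responses was 0.72 ± 0.25 with adjusted p = 0.447, and it was not called. Slc43a2 rose in DKO livers at day 1, from a median of 17.3 to 25.4 CPM, by 0.49 ± 0.13 on the log2 scale (adjusted p = 0.00406), with 13 of 18 livers above all 8 controls. In WT livers its change was 0.19 ± 0.15 (adjusted p = 0.408), and the difference between the responses was 0.30 ± 0.20 (adjusted p = 0.996). With the mouse number as a block the DKO change of Slc43a2 was 0.29 with adjusted p = 0.175. That fit uses fewer livers. Numbers 13 to 18 occur only among DKO livers without leucine at day 1, so these livers add nothing to its estimated changes. Numbers 9 to 12 occur only in leucine-free groups of day 1, so these livers have no control of their number.

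At day 8 Slc43a2 was lower without leucine in WT livers. It was at 17.2, 20.7, 17.9, 23.7 and 19.2 CPM in the 5 WT controls and at 8.30 to 15.4 CPM (median 13.5) in the 6 WT livers without leucine. The groups did not overlap, and the log2 change was -0.62 ± 0.19 with adjusted p = 0.0385. The call was lost without WT control replicate 2 (0.0755), 4 (0.118) or 5 (0.0608) and without WT leucine-free replicate 1 (0.107), 4 (0.0761) or 5 (0.0657), each an adjusted p. It was also lost with total counts (0.0526), with no expression filter (0.0671) and with clock gene components in the model (-0.41, adjusted p = 0.226). The DKO controls of day 8 held 23.9, 23.2, 24.6, 29.2 and 28.8 CPM and the leucine-free livers 12.2 to 29.4 CPM (median 19.3), a change of -0.40 ± 0.19 that did not pass (adjusted p = 0.115). The response of Slc43a2 at day 8 minus that at day 1 was -0.90 ± 0.23 in DKO livers (adjusted p = 0.00697; 0.073 with the mouse number as a block) and -0.81 ± 0.24 in WT livers (adjusted p = 0.0656). Slc7a8, the light chain LAT2, fell in DKO livers at day 8, from 8.94, 8.42, 9.56, 12.1 and 11.7 CPM to 2.31 to 9.72 CPM (median 6.10). Its change was -0.76 ± 0.26 with adjusted p = 0.0306, and it was lost without DKO control replicate 4 (0.0749) or 5 (0.0767) and without leucine-free replicate 1 (0.102) or 4 (0.0616), with no expression filter (0.0604), with only the compared groups (0.0605) and with the clock gene components (0.0543). In WT livers Slc7a8 changed by -0.73 ± 0.27 at day 8 (adjusted p = 0.097), with all 6 leucine-free livers at 4.12 to 5.86 CPM below the 5 controls at 7.13 to 10.3 CPM. Slc7a5 was not called at day 8, with changes of -0.47 ± 0.25 in WT (adjusted p = 0.285) and -0.12 ± 0.24 in DKO livers (adjusted p = 0.78). Slc43a1, the leucine carrier LAT3, was not called in any comparison, with group means of 6.69 to 12.6 CPM and diet changes between -0.37 ± 0.29 (WT, day 1) and 0.27 ± 0.36 (DKO, day 8).

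Markers of resident macrophages moved in the same direction as Slc43a2 and Slc7a8 at day 8. Of 10 Kupffer cell markers, 4 were lower in WT and 8 in DKO livers without leucine, beside 2.87% and 9.51% of all tested genes. None of the 10 was higher, and no marker of the list was at 0 throughout. Their summed level was 654 to 864 CPM in WT controls and 299.7 to 618 CPM without leucine, and 711 to 924 CPM against 186 to 759 CPM in DKO livers. At day 1 none of the 10 was called in either genotype. Markers of other cells were also lower at day 8. In WT livers these were 2 of 10 lymphocyte, 2 of 7 neutrophil, 1 of 6 erythroid and 1 of 10 stellate cell markers. In DKO livers they were 3 of 6 erythroid, 3 of 8 cholangiocyte, 2 of 10 stellate cell and 2 of 10 pericentral hepatocyte markers. None of these lists had a higher marker there, while periportal hepatocyte markers went both ways in both genotypes. The part of these cells in the transporter values was not tested.

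**Figure D3:**
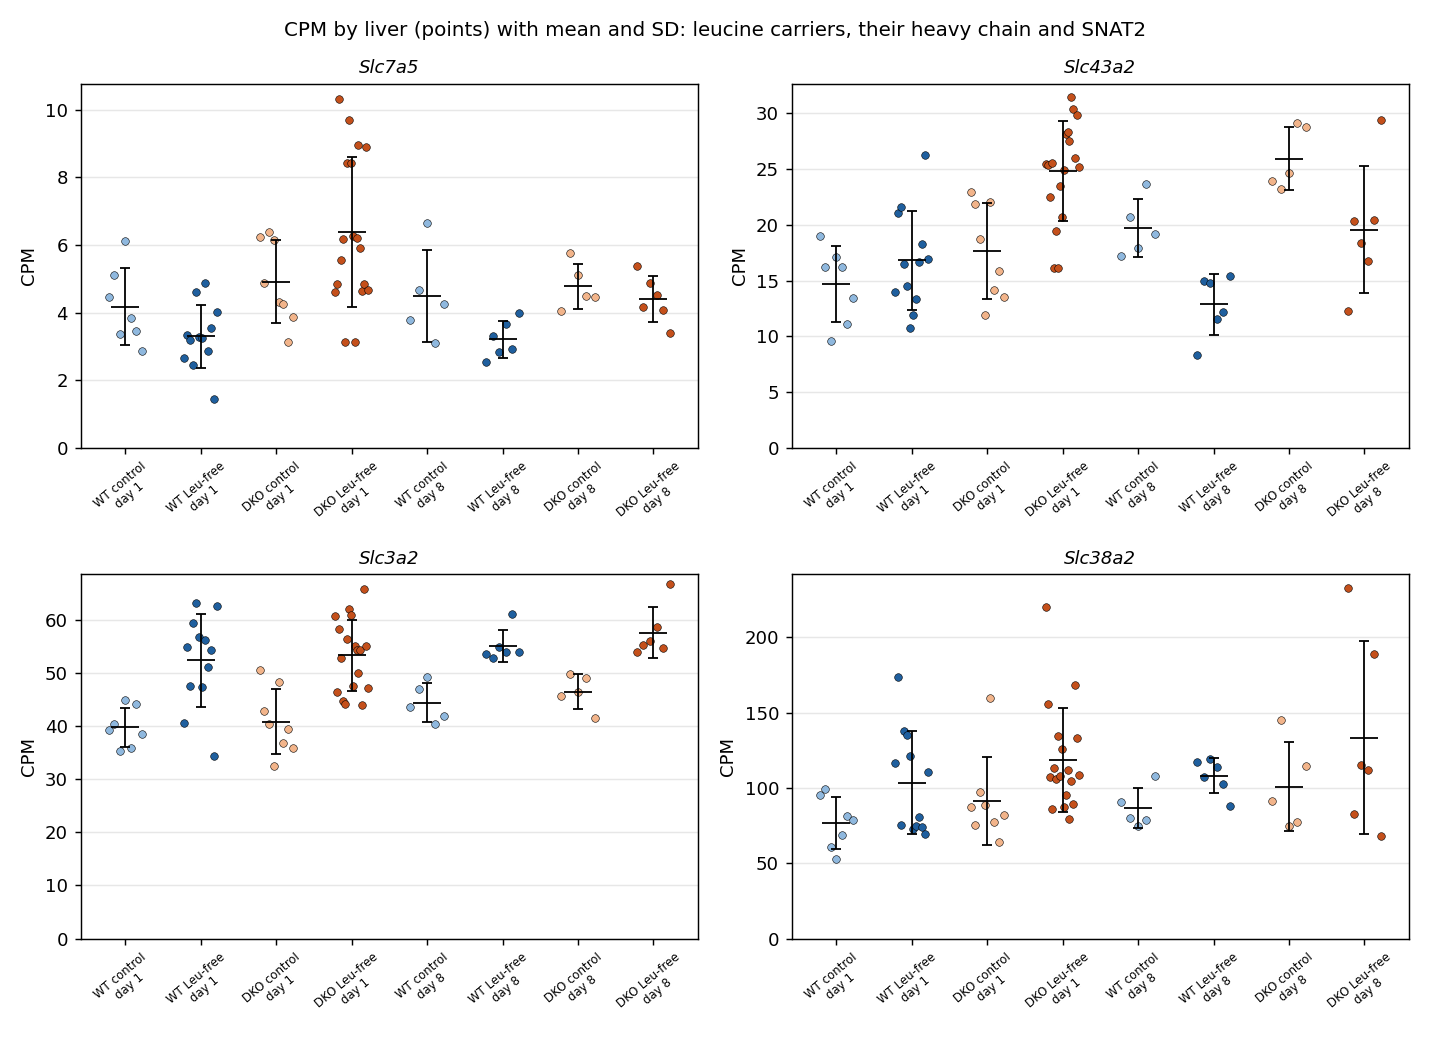
CPM in each liver (points), with mean and SD (bars), of Slc7a5, Slc43a2, Slc3a2 and Slc38a2 in the 8 groups. DKO livers without leucine at day 1 reach 10.3 CPM of Slc7a5, against 4.88 CPM at most in WT livers on that diet, and the mean of Slc3a2 is higher without leucine in each of the 4 pairs of groups.

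Slc3a2, which encodes the 4F2 heavy chain that Slc7a5, Slc7a7, Slc7a8 and Slc7a11 need at the membrane, had a small rise that was alike in size in 4 comparisons. At day 1 it was at 35.2 to 44.9 CPM (median 39.3) in WT controls and 34.4 to 63.0 CPM (median 54.6) without leucine, with 10 of 12 livers above all controls. The log2 change was 0.40 ± 0.09 with adjusted p = 0.000377. In DKO livers at day 1 it went from 32.4 to 50.5 CPM (median 39.9) to 43.9 to 65.8 CPM (median 54.3), a change of 0.38 ± 0.08 with adjusted p = 8.11e-05. The 18 DKO livers without leucine all lay above the control median, and 11 of them lay above all controls. At day 8 the 5 DKO controls held 45.6, 49.8, 46.4, 48.9 and 41.5 CPM and the 6 leucine-free livers 53.9 to 66.8 CPM (median 55.6), without overlap. This change was 0.31 ± 0.11 with adjusted p = 0.0319, and was lost without DKO control replicate 1 (0.0695), 3 (0.0549) or 5 (0.101) or leucine-free replicate 6 (0.0875). It was also lost with total counts (0.0574), with no expression filter (0.0611), with the clock gene components (0.0919) and without the 3 libraries of high residual (0.0557). In WT livers at day 8 the controls held 43.5, 47.0, 49.1, 40.4 and 41.8 CPM and the leucine-free livers 52.8 to 61.0 CPM, also without overlap, and the change of 0.31 ± 0.11 did not pass (adjusted p = 0.0751). It passed with voom (0.0161), with only the compared groups (0.0135) and without those 3 libraries (0.0382). No genotype difference of Slc3a2 passed, the log2 differences being between 0.03 and 0.07. Slc3a1, the heavy chain rBAT, was not called in any comparison, with group means of 88.2 to 144 CPM.

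Among the sodium-coupled Slc38a carriers, the most abundant gene fell and SNAT2 did not pass the test. Slc38a3, which moves glutamine in and out of hepatocytes, was at 844 to 2629 CPM (median 1757) in WT controls at day 1 and 869 to 1815 CPM (median 1230) without leucine. It fell by 0.52 ± 0.15 on the log2 scale (adjusted p = 0.00882), with 11 of 12 livers below the control median, though no liver lay below all controls. In DKO livers at day 1 it went from 939 to 2235 CPM (median 1480) to 750 to 1718 CPM (median 1201), a change of -0.39 ± 0.14 with adjusted p = 0.0282. The WT call was lost without WT control replicate 3 (0.0644), and the DKO call without DKO control replicate 2 (0.132), 3 (0.062) or 8 (0.0572). With 2 principal components of clock gene levels added to the model, the adjusted p was 0.0693 in WT and 0.417 in DKO. The DKO call was also lost with no expression filter (0.0771). It was lost too with the mouse number as a block (-0.33, adjusted p = 0.129), a fit with the limit given above. At day 8 the changes of -0.47 ± 0.20 in WT and -0.26 ± 0.20 in DKO did not pass.

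Slc38a2, the ATF4-responsive carrier SNAT2, was at 52.8 to 99.5 CPM (median 79.0) in WT controls and 69.7 to 173 CPM (median 95.7) without leucine at day 1. The DKO values at day 1 were 64.4 to 160 CPM (median 84.6) and 79.4 to 220 CPM (median 108). The groups overlapped in both genotypes, and the log2 changes of 0.43 ± 0.20 and 0.37 ± 0.17 had adjusted p = 0.113 and 0.115. At day 8 they were 0.32 ± 0.25 and 0.41 ± 0.25, with adjusted p = 0.499 and 0.253. With the mouse number as a block the day 1 changes passed, at adjusted p = 0.0192 in WT and 0.0288 in DKO, as the DKO change did with voom (0.0363) and without DKO control replicate 5 (0.019). The block fit has the limit given above. Slc38a4 had group means of 845 to 1049 CPM and was not called in any comparison. Slc38a1, the SNAT1 carrier, fell in WT livers at day 8, from 1.91, 3.49, 3.97, 4.41 and 2.41 CPM to 0.914 to 1.85 CPM (median 1.41), without overlap, by 1.19 ± 0.29 on the log2 scale (adjusted p = 0.00707). Its adjusted p stayed between 0.00364 and 0.0419 when each library was left out, and was 0.0686 with the clock gene components. In that comparison 2.87% of all tested genes were lower. Of 10 lymphocyte markers 2 were also lower, with summed levels of 9.09 to 19.7 CPM in controls and 4.49 to 8.82 CPM without leucine. Of 7 tested neutrophil markers 2 were lower, at 2.32 to 29.3 CPM against 2.21 to 3.62 CPM summed over the list. The part of these cells, and of the Kupffer cells above, was not tested.

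**Figure D4:**
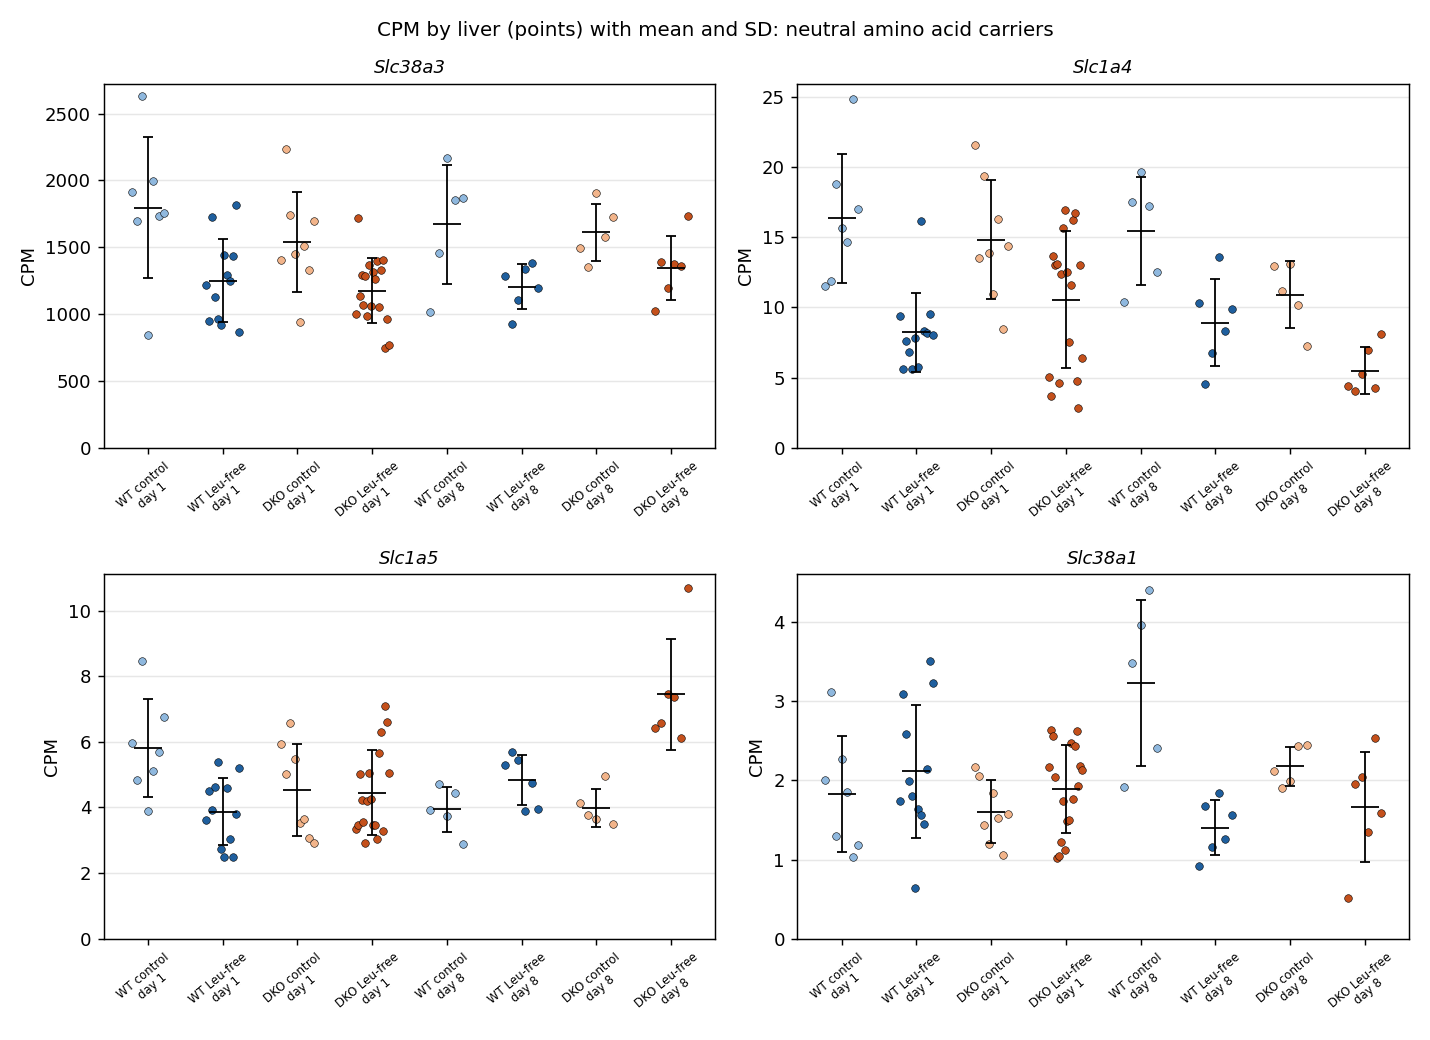
CPM in each liver (points), with mean and SD (bars), of Slc38a3, Slc1a4, Slc1a5 and Slc38a1 in the 8 groups. Slc1a5 is highest in DKO livers without leucine at day 8, at 6.11 to 10.7 CPM, and Slc1a4 is at 4.04 to 8.11 CPM in the same livers.

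The alanine, serine and cysteine carriers Slc1a4 (ASCT1) and Slc1a5 (ASCT2, which also carries glutamine) went different ways over time. Slc1a4 was at 11.5 to 24.8 CPM (median 15.7) in WT controls and 5.59 to 16.1 CPM (median 7.92) without leucine at day 1, with 11 of 12 livers below all controls. It fell by 0.99 ± 0.25 on the log2 scale (adjusted p = 0.00222). In DKO livers at day 1 it was at 8.46 to 21.5 CPM (median 14.1) in controls and 2.86 to 16.9 CPM (median 12.4) without leucine, and the change of -0.48 ± 0.22 did not pass (adjusted p = 0.103). Among those 18 DKO livers no value lay between 7.55 and 11.6 CPM, a gap that was not tested. Slc1a4 in DKO livers at day 8 went from 12.9, 11.1, 13.1, 10.2 and 7.24 CPM to 4.04 to 8.11 CPM (median 4.82), a fall of -0.99 ± 0.33 with adjusted p = 0.0238. This call was lost without DKO control replicate 1 (0.0569) or 3 (0.0583) or leucine-free replicate 2 (0.0539) or 5 (0.0509), and with no expression filter (0.0517). The WT change at day 8 was -0.79 ± 0.32 (adjusted p = 0.143).

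Slc1a5 fell in WT livers at day 1 and rose in DKO livers at day 8. At day 1 the WT controls held 3.89 to 8.48 CPM (median 5.70) and the leucine-free livers 2.48 to 5.39 CPM (median 3.87), a change of -0.58 ± 0.17 with adjusted p = 0.00891 (0.0525 without WT control replicate 3). All 12 lay below the control median and 6 lay below all controls. At day 8 the DKO controls held 4.13, 3.76, 3.66, 4.95 and 3.49 CPM and the leucine-free livers 6.11 to 10.7 CPM (median 6.99), without overlap, a change of 0.90 ± 0.21 with adjusted p = 0.00123. Slc1a5 was not called in DKO livers at day 1, at 2.92 to 6.59 CPM in controls and 2.93 to 7.09 CPM without leucine. Nor was it called in WT livers at day 8, at 2.90 to 4.70 and 3.90 to 5.68 CPM. Its response did not differ between the genotypes by the test at either day. The day 8 response minus the day 1 response in DKO livers was 0.91 ± 0.26 (adjusted p = 0.0181; 0.0576 without DKO leucine-free replicate 6 of day 8 and 0.055 without the 3 libraries of high residual), and in WT livers it was 0.89 ± 0.28 (adjusted p = 0.0826). Slc1a2, the glutamate carrier GLT-1, rose in DKO livers at day 1 from 146 to 188 CPM (median 172) to 169 to 287 CPM (median 225), with 17 of 18 livers above all controls. Its change was 0.43 ± 0.15 with adjusted p = 0.0252, and 0.0576 without DKO control replicate 6 or 0.203 with the clock gene components. Of 10 markers of the pericentral hepatocytes that are known to express Slc1a2, 3 were higher and 1 lower in that comparison. The shares of all tested genes were 10.5% and 13%, and the summed marker levels 6658 to 9472 CPM in controls and 9255 to 15502 CPM without leucine. In WT livers at day 1 Slc1a2 was not called, at 153 to 186 CPM in controls and 78.0 to 296 CPM without leucine. There 3 pericentral markers were higher and 0 lower, beside 8.28% and 11.2% of all genes, summed at 6786 to 9857 and 6846 to 18210 CPM. The part of these cells was not tested.

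Slc43a3, of the same family as LAT4 and known as a purine nucleobase transporter, rose in both genotypes at day 1. It went from 18.0 to 29.6 CPM (median 25.4) to 23.1 to 41.4 CPM (median 34.3) in WT livers, with 10 of 12 above all controls, a change of 0.48 ± 0.13 (adjusted p = 0.00509). In DKO livers it went from 16.0 to 33.6 CPM (median 25.9) to 27.2 to 56.1 CPM (median 38.9), a change of 0.66 ± 0.12 (adjusted p = 1.17e-05). At day 8 the changes of 0.04 ± 0.16 in WT and 0.33 ± 0.16 in DKO did not pass. Of 10 endothelial markers, 3 were higher in DKO livers at day 1, beside 10.5% of all tested genes. Their summed levels there were 277 to 574 CPM in controls and 366 to 618 CPM without leucine. None of the 10 was called in WT livers, at 278 to 565 and 290.2 to 579 CPM. Their part in the Slc43a3 values was not tested.

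The largest rises among the tested genes belonged to Slc6a16 and Slc6a21, members of the neurotransmitter transporter family. Slc6a16 is an orphan, with no known substrate. They lie side by side on chromosome 7 of GRCm38, Slc6a16 at 45241085 to 45273367 and Slc6a21 at 45277513 to 45288998, both on the plus strand with 4145 bases between them. Slc6a16 was at 0.0998 to 0.707 CPM (median 0.412) in WT controls and 0.334 to 3.85 CPM (median 2.08) without leucine at day 1, with 11 of 12 livers above all controls. The log2 change was 2.47 ± 0.45 with adjusted p = 2.94e-05. In DKO livers at day 1 it went from 0 to 1.22 CPM (median 0.358) to 0.414 to 4.29 CPM (median 1.71), a change of 2.00 ± 0.39 (adjusted p = 6.72e-05).

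Slc6a21 was lower throughout. It had 8 counts over the 7 WT controls at day 1 and 122 over the 12 leucine-free livers, or 0 to 0.0786 CPM (median 0.0220) against 0.0278 to 0.609 CPM (median 0.285). The change was 3.16 ± 0.80 with adjusted p = 0.00228, and 9 of 12 livers lay above all controls. In DKO livers at day 1 it had 38 counts over 8 controls and 327 over 18 leucine-free livers, a change of 1.76 ± 0.48 with adjusted p = 0.00367. At day 8 both genes rose in DKO livers, Slc6a16 by 1.68 ± 0.54 (adjusted p = 0.0199) and Slc6a21 by 3.36 ± 0.66 (adjusted p = 7.6e-05), with 5 of 6 livers above all 5 controls for each gene. DKO leucine-free replicate 6 of day 8 was the exception, at 0.0513 CPM of each. The Slc6a16 call at day 8 was lost without DKO control replicate 3 (0.0527) or leucine-free replicate 1 (0.058), and with voom (0.0508). In WT livers at day 8 the changes of 1.36 ± 0.56 and 0.98 ± 0.63 did not pass (adjusted p = 0.147 and 0.392). The 6 leucine-free livers held 0.893 to 1.96 CPM of Slc6a16 and the 5 controls 0.303 to 0.770 CPM.

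**Figure D5:**
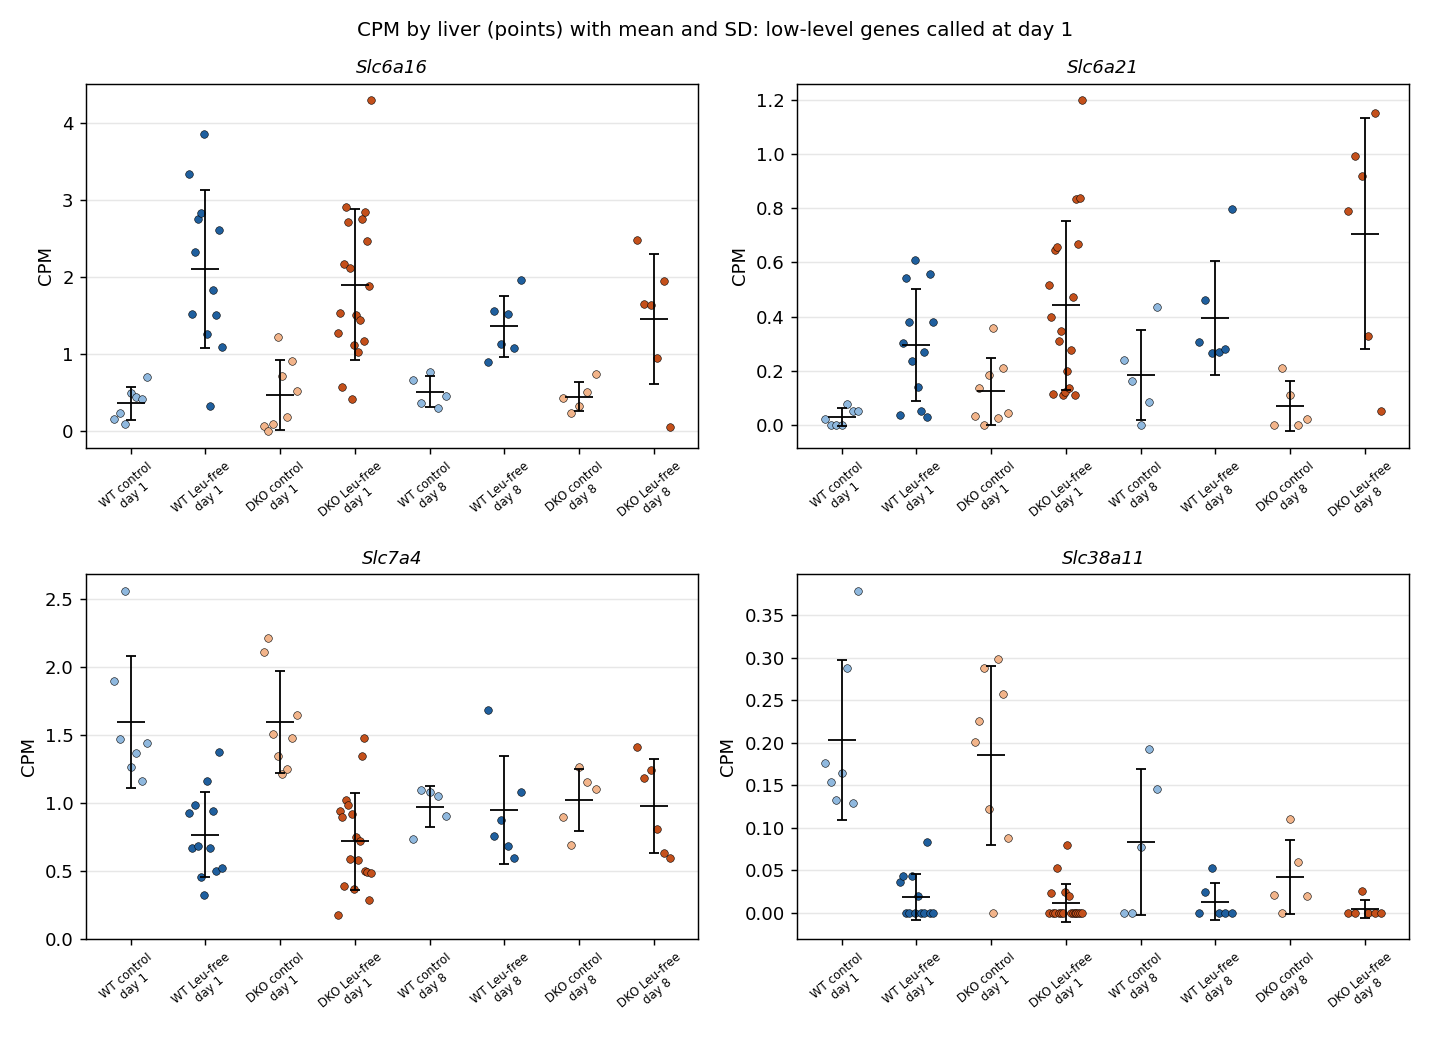
CPM in each liver (points), with mean and SD (bars), of Slc6a16, Slc6a21, Slc7a4 and Slc38a11 in the 8 groups. Slc7a4 is lower without leucine at day 1, with means of 0.765 CPM (WT) and 0.717 CPM (DKO) beside 1.59 CPM in both control groups, and at day 8 its 4 group means lie between 0.945 and 1.02 CPM.

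Slc38a11 and Slc7a4, genes of low level whose substrates are not established, fell at day 1 in both genotypes. Slc38a11 had 57 counts over the 7 WT controls and 9 over the 12 WT leucine-free livers, or 0.129 to 0.379 CPM (median 0.164) against 0 to 0.0834 CPM (median 0), without overlap. Its log2 change was -3.12 ± 0.60 with adjusted p = 4.59e-05. In DKO livers it had 55 counts over 8 controls and 9 over 18 leucine-free livers, a change of -3.62 ± 0.57 with adjusted p = 4.69e-07, and 1 control was at 0. At day 8 it had 14 counts on control and 3 on leucine-free food in WT, and 10 and 1 in DKO, too few for a fold to be given. Slc7a4 was at 1.16 to 2.56 CPM (median 1.44) in WT controls and 0.321 to 1.37 CPM (median 0.673) without leucine, with 11 of 12 livers below all controls, a change of -1.06 ± 0.23 (adjusted p = 0.000555). The DKO change at day 1 was -1.15 ± 0.21 (adjusted p = 1.14e-05), with 16 of 18 livers below all controls. At day 8 Slc7a4 changed by 0.05 ± 0.32 in WT and -0.10 ± 0.30 in DKO livers.

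Of the other Slc6a genes, 3 were called, each at day 8 and in 1 genotype. Slc6a13, the GAT2 carrier of GABA and taurine, rose in WT livers from 242, 216, 256, 255 and 295 CPM to 321 to 382 CPM (median 354), without overlap. The change was 0.47 ± 0.13 with adjusted p = 0.0263, and it was lost without WT control replicate 1 (0.062), 2 (0.0904), 3 (0.0511) or 4 (0.0552) or leucine-free replicate 3 (0.0628), and with the clock gene components (0.251). In DKO livers it changed by 0.33 ± 0.13 (adjusted p = 0.0725). Slc6a8, the creatine transporter, rose in DKO livers from 5.58, 5.40, 6.69, 4.24 and 5.60 CPM to 7.20 to 12.6 CPM (median 9.82), without overlap, by 0.84 ± 0.25 (adjusted p = 0.0118), beside 0.59 ± 0.25 in WT livers (adjusted p = 0.166). Slc6a7, the proline transporter known from brain, fell in DKO livers from 0.625, 1.06, 0.768, 0.681 and 1.36 CPM to 0.179 to 0.398 CPM (median 0.283), without overlap, by 1.62 ± 0.39 on the log2 scale (adjusted p = 0.00146). Its day 8 response minus its day 1 response in DKO livers was -1.87 ± 0.53 (adjusted p = 0.0157; 0.0545 without DKO control replicate 5 of day 8 and 0.173 with voom). Slc6a6, the taurine carrier, at group means of 99.3 to 152 CPM, Slc6a12, the betaine carrier, at 97.2 to 138 CPM, and Slc6a9, the glycine carrier GlyT1, at 21.8 to 29.8 CPM, were not called in any comparison.

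Carriers of cationic amino acids and lysosomal carriers did not pass the test in any comparison. Slc7a2 had group means of 428 to 540 CPM in 7 groups and 770 ± 200 CPM (SD, n = 6) in DKO livers without leucine at day 8. Its diet change there was 0.58 ± 0.25 (adjusted p = 0.0907) and its genotype difference on that food 0.75 ± 0.24 (adjusted p = 0.0788). Slc7a1 stayed at group means of 1.19 to 2.10 CPM and Slc7a7, which exports cationic amino acids with Slc3a2, at 2.86 to 4.24 CPM. Slc38a9, the lysosomal arginine sensor of mTORC1, had group means of 9.57 to 12.0 CPM, and its genotype difference was 0.18 ± 0.06 at day 1 (adjusted p = 0.0841) and 0.32 ± 0.10 at day 8 (adjusted p = 0.0606) on leucine-free food. Slc36a1, a proton-coupled carrier of lysosomes, at 32.0 to 44.7 CPM, Slc38a7, a lysosomal glutamine carrier, at 29.1 to 37.4 CPM, and Slc38a10, at 106 to 126 CPM, were not called either. Slc7a6os rose in DKO livers at day 8 from 21.9, 23.2, 22.4, 21.8 and 23.2 CPM to 22.7 to 36.02 CPM (median 32.2), by 0.45 ± 0.09 (adjusted p = 0.000162).

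Differences between the genotypes were few. On control food edgeR called none of the 38 genes at day 1, beside 0.881% of all genes, and none at day 8, beside 0.0532%. At an unadjusted p under 0.05 there were 2 and 1 genes, and DESeq2 and voom also called 0 in both. On leucine-free food at day 8 edgeR called 0, beside 2.06% of all genes, with 9 at an unadjusted p under 0.05, 3 called by DESeq2 and 1 by voom. Slc43a2 was nearest to Slc7a5 in kind, with a day 8 difference of 0.61 ± 0.18 (adjusted p = 0.0558), while the Slc7a5 difference at day 8 was 0.46 ± 0.24 (adjusted p = 0.371). The response to diet did not differ between the genotypes by the test for any of the 38 genes, at day 1 (beside 0.373% of all genes) or at day 8 (beside 0.0414%). At an unadjusted p under 0.05 there were 2 and 5, and DESeq2 and voom called 0.

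Between day 1 and day 8 the diet response itself changed for 4 genes. In WT livers 1 gene passed, or 2.63% beside 1.64% of all genes (0.781% lower). This was Slc38a1, at -1.37 ± 0.37 (adjusted p = 0.0356), whose WT values at day 1 were 1.03 to 3.12 CPM in controls and 0.641 to 3.51 CPM without leucine. The call was lost without any one of WT control replicates 3 (0.0624), 6 (0.0637) or 7 (0.0648) or leucine-free replicates 2 (0.0571) or 12 (0.0503) of day 1. It was likewise lost without WT control replicates 2 (0.0634), 3 (0.0596) or 4 (0.106) or leucine-free replicates 1 (0.0872) or 3 (0.0692) of day 8, with only the compared groups (0.0662), with the clock gene components (0.0625) and without the 3 libraries of high residual (0.0665). In the same comparison 3 of 7 neutrophil and 1 of 10 lymphocyte markers were lower and no Kupffer cell marker was called, and their part was not tested. In DKO livers 3 genes passed, Slc1a5 higher and Slc43a2 and Slc6a7 lower, or 7.89% beside 8.84% of all genes (5.29% higher and 3.55% lower). Kupffer cell markers shifted too in DKO livers, with 6 of 10 lower in that comparison, and their part in it was not tested.

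Transporters outside these families and genes of leucine handling give the surroundings, and their counts stand beside the same all-gene shares as above, 19.5% and 23.5% at day 1 and 5.25% and 20.6% at day 8 in WT and DKO. Of 22 other amino acid and peptide transporter genes, 15 were tested, and 1 was higher and 3 lower in WT livers at day 1, 4 and 1 in DKO livers at day 1, 0 and 1 in WT livers at day 8, and 5 and 1 in DKO livers at day 8. Slc25a44, the mitochondrial carrier of branched-chain amino acids, fell in all 4, by 0.95 ± 0.09, 0.68 ± 0.08, 0.45 ± 0.12 and 0.60 ± 0.12 on the log2 scale (adjusted p = 3.69e-12, 1.56e-09, 0.0177 and 0.000186). Slc25a29, a mitochondrial carrier of basic amino acids, rose in DKO livers by 0.44 ± 0.14 at day 1 (adjusted p = 0.0192) and 1.22 ± 0.21 at day 8 (adjusted p = 7.87e-06). Slc16a10, the aromatic amino acid carrier TAT1, rose by 0.34 ± 0.12 in WT and 0.42 ± 0.11 in DKO livers at day 1 and by 0.58 ± 0.15 in DKO livers at day 8 (adjusted p = 0.0392, 0.00246 and 0.00376). Of 12 tested genes of branched-chain amino acid breakdown, Bckdha rose in all 4 comparisons, by 0.24 to 0.39, and 3 and 1, 3 and 3, 2 and 0, and 2 and 0 genes were higher and lower in the same order.

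Of 26 ATF4 target genes outside the 7 families, 2 were higher and 4 lower in WT and 10 higher and 2 lower in DKO livers at day 1, and 2 higher and 0 lower in WT and 10 higher and 2 lower in DKO livers at day 8. Their median log2 changes were -0.17, 0.35, 0.36 and 0.74, beside all-gene medians near 0. The shares of all genes called were 8.28% higher and 11.2% lower, 10.5% and 13%, 2.38% and 2.87%, and 11.1% and 9.51%, in the same order. Trib3, a pseudokinase induced by ATF4, rose in DKO livers by 2.20 ± 0.42 at day 1 (adjusted p = 4.5e-05) and by 3.13 ± 0.57 at day 8 (adjusted p = 3.9e-05). In WT livers its changes of 0.84 ± 0.44 and 1.40 ± 0.57 did not pass (adjusted p = 0.187 and 0.14). Asns, also known as an ATF4 target, was not called at day 1, at -0.30 ± 0.57 in WT and 0.33 ± 0.47 in DKO livers (adjusted p = 0.763 and 0.659). At day 8 it rose by 3.48 ± 0.73 in DKO livers (adjusted p = 0.000304), and its WT change of 1.64 ± 0.82 did not pass (adjusted p = 0.245). The Trib3 response did not differ between the genotypes by edgeR's test, at day 1 (1.36 ± 0.58, adjusted p = 0.717) or day 8 (1.73 ± 0.77, adjusted p = 0.488). For that difference, 1 of the 26 genes was higher at day 1 and 0 were called at day 8, beside 0.373% and 0.0414% of all genes called. On leucine-free food, 8 of the 26 were higher in the DKO group at day 1, Sesn2 among them, beside 1.87% of all genes, and 5 were higher and 1 lower at day 8, beside 2.06% of all genes called. Of 21 leucine sensing genes, 0 were higher and 7 lower in WT livers at day 1 and 1 and 4 in DKO livers at day 1, 0 and 1 in WT and 2 and 3 in DKO livers at day 8. Comparisons of one genotype at one time share their livers with the genotype comparisons, so these counts are not independent of each other.

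Whether Slc7a5, Slc3a2, Slc7a11 and Slc38a2 varied together, or with Trib3, was examined among the livers without leucine at day 1, in each genotype separately. None of 20 relations passed a permutation test after Benjamini-Hochberg adjustment. Of these, 8 use Slc7a11, which had a count in 8 of the 12 WT and 6 of the 18 DKO livers, and nothing is read from them. The lowest p was Slc7a5 with Slc3a2 in the 12 WT livers, with Pearson's r = 0.777 (permutation p = 0.00402, adjusted p = 0.0804) and Spearman's rho = 0.622 (permutation p = 0.035, adjusted p = 0.223). Adjusted over the 12 relations without Slc7a11, a choice made after seeing the data, these became 0.0482 for r and 0.155 for rho. Without the 2 livers farthest from the Slc7a5 median r was 0.551 (permutation p = 0.0977). Slc7a5 with Trib3 in the 18 DKO livers gave r = 0.504 (permutation p = 0.0336, adjusted p = 0.336) and rho = 0.556 (permutation p = 0.0176, adjusted p = 0.223), and r = 0.413 without the 2 farthest.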

How the data were processed

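The deposited values are raw counts, 1 whole number per gene and library. The authors' steps are known only in part: per the submitters' processing notes, STAR 2.7.1a, featureCounts 2.0.1 and DESeq2 1.26.0 were used, with no roles given. Per the labels' protocols, RNA from frozen livers went into directional libraries. A series table with 67 per-sample columns was not used. All 55450 identifiers matched GENCODE M21 of GRCm38.

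The quasi-likelihood test of edgeR 4.0.16 (robust, TMM scaling, R 4.3.3) was run in 1 model of 8 groups over all 67 libraries. The expression filter kept 16908 genes and left out 38542. Adjusted p-values are Benjamini-Hochberg values over all genes of a comparison, called under 0.05, and ± marks SE of log2 changes. The share of all tested genes whose groups do not overlap was not counted, so a lack of overlap only describes the values of a gene. The 12 comparisons are 4 of diet, 4 of genotype and 4 of differences between responses. DESeq2 1.42.0 and voom (limma 3.58.1) were alternatives. The fit was tested on simulated data. Reads carry no molecular identifiers, so counts are not independent molecules.

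Genes named by rule are Slc7a5, Slc3a2, Slc7a11, Slc38a2, every gene called, and those with a mean of at least 10 CPM in a group. Others, such as Slc7a1 and Slc7a7, are named outside this rule. The members and the lists were chosen with earlier results of these data known. Relations used log2 CPM with a pseudocount of 0.1 and 100000 resamples, two-sided. Comparisons of diet, of genotype and of differences between responses share groups of livers. No 2 libraries of a group agreed within sampling noise (lowest chi-square per degree of freedom 17.2). Mouse numbers recur across groups: deviations of same-numbered livers correlated at -0.373 to 0.4, over 0.1 in 41 of 168 pairs, so the numbers were not taken to pair livers.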

Additional observations from a re-analysis of the deposited data

Results flagged for a closer look

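In 186 sets of 4 to 10 livers, formed by 31 named genes and the groups of that size, 12 had a highest value far from the others, and chance alone marks about 1 in 20 such sets. At day 8 DKO leucine-free replicate 6 held 10.7 CPM of Slc1a5, where the next liver held 7.46, and 66.8 CPM of Slc3a2, where the next held 58.6. WT leucine-free replicate 4 of day 8 held 163 CPM of Slc3a1 and 574 CPM of Slc7a2, beside 97.9 and 459 in the next livers. On the same food and day, WT replicate 5 held 61.0 CPM of Slc3a2 and WT replicate 6 held 0.797 CPM of Slc6a21. Slc7a11, with few counts, stood out in DKO control replicate 8 of day 1 at 0.0877 CPM, in WT leucine-free replicate 1 of day 8 at 0.0812 CPM and in DKO leucine-free replicate 5 of day 8 at 0.223 CPM. The other values were 0.0249 CPM of Slc38a11 in DKO leucine-free replicate 3 of day 8, 159.8 CPM of Slc38a2 in DKO control replicate 5 of day 1 and 13.9 CPM of Slc38a9 in DKO control replicate 5 of day 8.

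The diet response at day 8 differed from that at day 1, in edgeR's test of the difference itself, by -1.37 for Slc38a1 in WT livers and by 0.91 for Slc1a5, -1.87 for Slc6a7 and -0.90 for Slc43a2 in DKO livers, all on the log2 scale.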

How the results depend on the processing

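The counts of genes called were recomputed under 12 other settings and without each library in turn; those with the older edgeR dispersion and without the 1 library lacking Xist counts were chosen after seeing the data, and neither changed any count by over 1.5 times. Of 423 values of the 36 called gene results under other settings, 397 kept their side of the threshold, 26 lost it and none reversed, and of 733 with a library left out 690 kept it and 43 lost it. For WT livers at day 8 the count of 3 became 7 with voom and with only the compared groups, and 1, which was none of these 3, with the clock gene components. For the time difference in WT livers the count of 1 became 2 with DESeq2, 4 with voom, and 0 with only the compared groups, with the clock gene components and without the 3 libraries of high residual. For that in DKO livers the count of 3 became 6 with voom and 5 without those 3 libraries. For the genotype difference on leucine-free food at day 8 the count of 0 became 1 with total counts, with voom and with only the compared groups, 2 with a mean CPM of at least 1 and 3 with DESeq2. The causes were not tested. With the mouse number as a replicate block that count was 1, and the counts in the diet comparisons were 10 in WT and 8 in DKO at day 1 and 3 and 10 at day 8. The block fit takes nothing from DKO leucine-free livers 13 to 18 of day 1, whose numbers occur in no other group. Of 168 comparisons of a liver, 28 placed it closest to its own number.

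With 1 library left out, counts ranged over 7 to 10 and 7 to 11 in WT and DKO livers at day 1, 1 to 3 and 6 to 10 at day 8, 0 to 3 and 2 to 5 for the time differences in WT and DKO, and 2 to 3 and 0 to 3 for the genotype difference on leucine-free food at day 1 and day 8. They stayed at 0 for the other 4 comparisons. For WT at day 8 the count was 1 without WT control replicate 2 or 4. For the genotype difference at day 8 it was 3, 2 and 1 without DKO leucine-free replicate 1, 4 and 5. For the time difference in DKO it was 5 without leucine-free replicate 16 of day 1 or replicate 6 of day 8, and in WT it was 2 or 3 without control replicate 1 (2) or 4 (3) or leucine-free replicate 6 (2) or 7 (2) of day 1. Near 0, the Slc3a2 genotype difference changed sign on leucine-free food at day 1 to -0.017 with the clock gene components, and ranged over -0.018 to 0.053 with 1 library left out (-0.0045 and -0.018 without WT replicates 1 and 11). On control food it ranged over -0.011 (without DKO replicate 1) to 0.080. Without the 2 farthest livers, r went from -0.137 to 0.232 for Slc7a11 with Trib3 in WT and from -0.287 to 0.212 for Slc38a2 with Trib3 in DKO livers, and from 0.121 to 0.653 for Slc7a5 with Slc7a11 in WT and from 0.0245 to 0.321 for Slc7a11 with Trib3 in DKO livers. With the Slc7a11 relations left out of the adjustment, also chosen after seeing the data, Slc7a5 with Slc3a2 in WT (r = 0.777) passed at adjusted p = 0.0482, which follows from fewer relations.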

Other observations

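Trpm4, the next gene after Slc6a16 and Slc6a21 on chromosome 7 and on the opposite strand (45302632 to 45333780), rose with them, by 1.35 in WT and 1.16 in DKO livers at day 1 and by 0.70 in DKO livers at day 8 on the log2 scale (edgeR's quasi-likelihood test, adjusted p = 7.49e-07, 1.01e-06 and 0.0241), and changed by 0.31 in WT livers at day 8 (adjusted p = 0.504). Rpl14-ps1, which lies within Trpm4 on the other strand, rose by 0.98 in DKO livers at day 8 (adjusted p = 0.000107) and was not called in the other 3. On the other side, Cd37 and Tead2 were not called in any of the 4 diet comparisons. Farther out on that side, Pih1d1 rose by 0.14 in DKO livers at day 1 and by 0.33 in WT and 0.35 in DKO livers at day 8 (adjusted p = 0.0477, 0.00449 and 0.000445), and Aldh16a1 by 0.21 in WT and 0.27 in DKO livers at day 1 and 0.33 in DKO livers at day 8 (adjusted p = 0.0211, 0.000606 and 0.00368). These neighbours were chosen after the values were seen.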
